A study of Mus musculus with 4 samples.

Results

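The genes described here carry the hedgehog signal from the cell surface to the nucleus: the coreceptors Boc, Cdon and Gas1, the receptor Ptch1, the transducer Smo, the transcription factors Gli1, Gli2 and Gli3, and the Gli inhibitor Sufu. These 9 genes were taken by name, out of 21883 protein-coding genes in a RefSeq table (build GRCm38.p6, which shares its chromosome coordinates with mm10). For each gene, every row of the deposited H3K27ac peak lists that overlapped the gene or the 10 kb on each side of it was taken, which gave 46 peaks of the Hdac3-deleted culture and 54 of the control culture.

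ChIP-seq had been run for H3K27ac, histone H3 acetylated on a lysine of its tail, a mark of active promoters and enhancers. The cells were primary chondrocytes of C57Bl/6 mice, grown as dense micromass cultures. The Hdac3 knockout culture had been transduced with an adenovirus carrying Cre recombinase (Cre, 1 library), and the wild-type control culture with an adenovirus carrying GFP (GFP, 1 library). Per its design text, the study asked what H3K27ac looks like at genes that change in expression without Hdac3, a histone deacetylase. Cells of both groups had thus been exposed to a virus, and the labels give neither the allele that Cre acts on nor how many animals went into a culture. A list of acetylated regions does not check the loss of Hdac3 itself. There is no replicate check and no test between the cultures, so every difference given is one between 2 libraries.

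Hedgehog ligands bind Ptch1, which otherwise keeps Smo inactive, and the coreceptors Boc, Cdon and Gas1 help in capturing the ligand. Active Smo works in the primary cilium and frees Gli2 and Gli3 from Sufu and from processing into repressors, while Gli1 and Ptch1 are themselves target genes of the pathway and are widely used as its readout. In the growth plate, Indian hedgehog from prehypertrophic chondrocytes keeps neighbouring chondrocytes dividing and holds back their hypertrophy through PTHrP.

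The Cre list held 13130 peaks and the GFP list 12873, with a median width of 194 and 198 bp. Each peak's summit pileup, the number of fragments stacked at its highest point, was solved from the fold enrichment and the −log10 p-value that the authors' caller gave, and had a median of 12 fragments in both libraries. Fold, score and p-value are the authors' own, so folds are compared only between peaks of the same list, and peaks of the 2 lists are set side by side by pileup and width. The most frequent expected pileup was 1.01 with Cre and 0.949 with GFP, a ratio of 1.06. Total read numbers were not given in the sources used here. All 8 chondrocyte marker genes examined, Col2a1, Acan and Sox9 among them, had peaks in both lists, covering 30095 bp with Cre and 39577 bp with GFP in all. Of 5 osteoblast markers Sp7 alone had peaks (2 Cre, 3 GFP), of 5 fibroblast markers Col6a3 alone (6 Cre, 5 GFP) and of 5 blood and macrophage markers Cd68 alone (0 Cre, 3 GFP). The Sp7 and Cd68 peaks all lay outside those genes, in the 10 kb flank, and those counted for Sp7 are near the start of its neighbour Aaas. No adipocyte, skeletal muscle or endothelial marker had a peak in either list.

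No called peak lay on the core promoter at the listed start of the 7 members that have one, as at most listed starts of all genes. None of the 7 members in the RefSeq table of promoters (build GRCm38.p6), which runs from 250 bases before to 50 bases after a listed start, had a peak of either list inside that window. Over all 32851 windows of that table, 3.62% held a Cre peak and 3.88% a GFP peak. Boc and Gli1 had no entry. For Cdon the listed start, chr9:35452076, lies inside the gene, and the annotated end at chr9:35421528 was not among the windows. Shown here are the 250 bases before the listed start of 4 members. Gas1, Smo and Gli3 are shown because overlapping peaks of both lists had summits within 2.5 kb of the start. Ptch1 is shown because the called peaks of the 2 lists near the start lay on different sides of it. The sequences are from RefSeq, written 5′ to 3′ on the gene's strand, and capitals mark the GC box GGGCGG, searched on both strands (CCGCCC where it lies on the other strand). The Ptch1 stretch is chr13:63565736-63565985 (minus strand), Smo chr6:29735247-29735496 (plus), Gli3 chr13:15463473-15463722 (plus) and Gas1 chr13:60177536-60177785 (minus).
Ptch1: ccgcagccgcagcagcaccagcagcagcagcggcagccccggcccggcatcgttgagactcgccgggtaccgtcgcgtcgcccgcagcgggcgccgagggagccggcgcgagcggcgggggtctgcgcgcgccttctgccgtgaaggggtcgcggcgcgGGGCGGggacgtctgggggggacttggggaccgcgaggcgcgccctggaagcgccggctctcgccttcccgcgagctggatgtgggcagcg
Smo: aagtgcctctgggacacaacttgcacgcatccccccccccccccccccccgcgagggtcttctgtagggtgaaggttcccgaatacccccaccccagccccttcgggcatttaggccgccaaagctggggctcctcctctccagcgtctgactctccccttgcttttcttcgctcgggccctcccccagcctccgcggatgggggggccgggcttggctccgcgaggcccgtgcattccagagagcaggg
Gli3: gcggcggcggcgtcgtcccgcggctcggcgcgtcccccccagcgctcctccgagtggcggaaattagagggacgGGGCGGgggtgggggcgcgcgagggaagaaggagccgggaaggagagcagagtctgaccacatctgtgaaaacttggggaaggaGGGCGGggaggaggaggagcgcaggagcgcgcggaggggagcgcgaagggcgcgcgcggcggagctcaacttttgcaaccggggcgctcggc
Gas1: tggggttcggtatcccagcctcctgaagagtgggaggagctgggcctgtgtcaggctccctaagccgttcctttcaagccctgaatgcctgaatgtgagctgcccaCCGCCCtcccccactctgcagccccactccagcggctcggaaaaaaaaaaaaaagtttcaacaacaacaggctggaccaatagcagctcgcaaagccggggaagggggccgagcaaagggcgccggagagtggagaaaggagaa

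The Ptch1 stretch held 41 CpG dinucleotides and the Gli3 stretch 34, against a median of 6 over the 32851 windows cut to the same 250 bases. The Smo stretch held 15 and the Gas1 stretch 10. A GC box was present in the Ptch1, Gli3 and Gas1 stretches and not in that of Smo, and 32.7% of the 250-base stretches held one. The Gli consensus GACCACCCA, searched on both strands of the 300 bases, was in none of the 7 members' windows and in 0.253% of all windows.

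Boc and Cdon, the coreceptors, held most of the acetylated length, and the control culture had more of it. At least 1 peak was found at 7 members with Cre and at 7 with GFP, and at 8 of 9 in either list. Of all protein-coding genes, 26% had a Cre peak, 26% a GFP peak and 32.3% a peak in either list, with no matching for gene length. Covered length, the bases under peaks, came to 9485 bp with Cre and 12263 bp with GFP over the 9 members, a Cre share of 43.6%. Over the neighbourhoods of all protein-coding genes the Cre share was 49.5%. A share near that of the members was also found at the 8 chondrocyte markers (43.2%) and at 24 ciliary and Gli-processing regulators (42.4%). At 14 hedgehog response and growth plate genes it was 50.9%, and at 8 genes for ligands and their release 66.85%. The last share rests on 4 Cre and 2 GFP peaks (851 and 422 bp) at 2 of those 8 genes. By number the Cre share of the members' peaks was 46%, with an exact Clopper-Pearson 95% interval of 35.98 to 56.3%. Boc alone made up 44.0% of the members' Cre length and 61.9% of their GFP length, and without Boc the Cre share of length was 53.2%, on the other side of an even split. Intervals here cover counting error only, since fragments of 1 amplified library are not independent molecules.

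**Figure D1:**
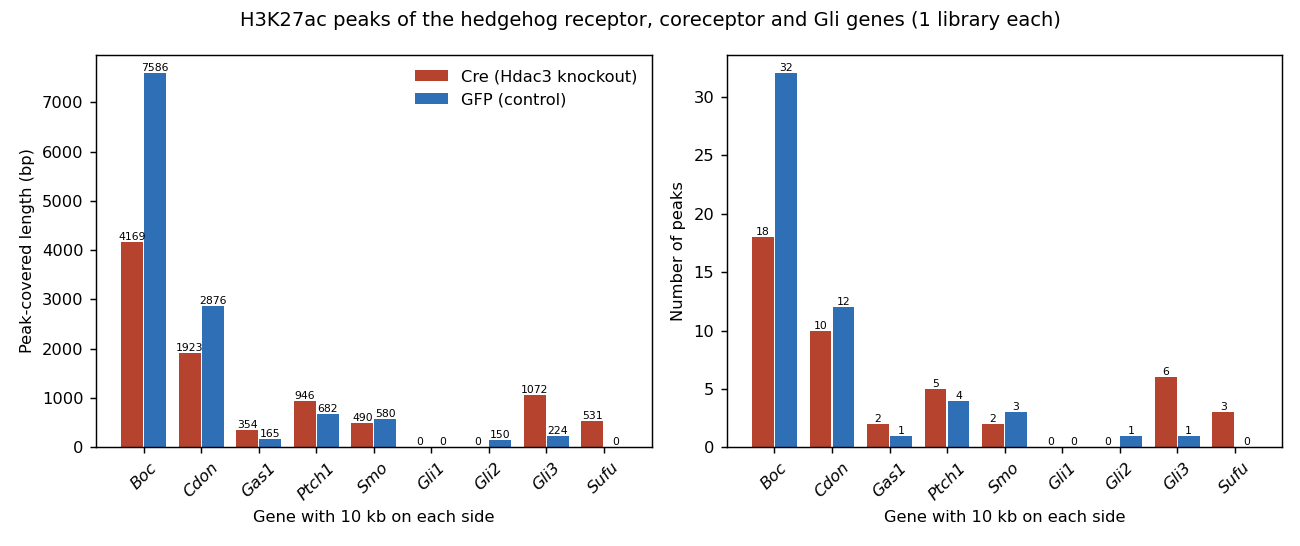
Peak-covered length in bp (left) and number of peaks (right) of each gene with 10 kb on each side, for the Cre library (red, left bar) and the GFP library (blue, right bar), 1 library each. Boc has the tallest bars, with 4169 bp (Cre) and 7586 bp (GFP), Gli3 and Sufu have more in the Cre library, and Gli1 has none.

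Members were read as different in length only when 1 list covered at least 2 times as much as the other and at least 300 bp more. Gli3 and Sufu passed this in the Cre direction, a pass that 4% of all protein-coding genes and 12.4% of the 7079 genes with any peak also made. No member passed in the GFP direction, which 4.12% of all genes did. By any difference at all, 4 members had more length in the Cre list, 4 had more in the GFP list, and Gli1 had none in either. These signs were not firm at single genes: when peaks were kept at a −log10 q minimum of 5, the differences of Cdon (1613 bp with Cre, 1361 bp with GFP), Gas1 (0 and 165 bp), Ptch1 (311 and 471 bp) and Smo (320 and 292 bp) changed sign. Gas1, Ptch1 and Smo did so among the top 5000 peaks as well. Across the 7079 genes with a peak, 49.1% had more with Cre and 50.8% more with GFP.

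Boc encodes an immunoglobulin-type transmembrane protein that binds hedgehog ligands beside Ptch1. The gene (chr16:44485045-44558870) had 18 Cre peaks covering 4169 bp and 32 GFP peaks covering 7586 bp. All of them lay inside the gene. Boc and Cdon had 10 or more peaks in a list, as did 1.16% of protein-coding genes. For Boc, only 49 protein-coding genes had more Cre peaks and 17 more GFP peaks. Its covered length was 444 bp per 10 kb with Cre and 809 bp per 10 kb with GFP, the highest density of the 9 members in both. The difference of −3417 bp (Cre minus GFP) was exceeded in the GFP direction by 7 genes. At 1.82 times more with GFP, Boc stayed under the 2-fold threshold, which it passed with stricter peak sets (at a −log10 q minimum of 5, 1725 bp with Cre and 5404 bp with GFP).

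Peaks of both libraries within 1 kb of each other were joined into clusters, of which Boc had 16: 6 with peaks of both lists, 2 with Cre peaks alone and 8 with GFP peaks alone. In the table used here the gene has no strand, so its ends are called lower and upper. Toward the lower end both libraries had strong peaks at the same place. A cluster 8.88 to 10.6 kb from the lower end held the strongest Cre peak of the gene (chr16:44494785-44495089, fold 9.46, 18 fragments, exact Poisson 95% interval 10.7 to 28.4). The GFP peak over it had 12 fragments (6.20 to 20.96). The GFP list had a further peak of 542 bp in the cluster with 18 fragments, the third of its Boc peaks by fold (9.14). The cluster covered 804 bp with Cre and 1241 bp with GFP.

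The middle and the upper end of Boc held more GFP peaks. Between 21.4 and 30.5 kb from the lower end, 5 Cre peaks covered 963 bp and 11 GFP peaks covered 2497 bp. Highest pileups were close there, at 15 fragments with Cre and 14 with GFP. The widest peak of the gene in either list, a GFP peak of 658 bp (chr16:44510664-44511321, fold 6.67), lay in this stretch with no Cre peak over it, and the nearest Cre peak was 520 bp away. Strong GFP peaks without an overlapping Cre peak, fold 9.75 and 18 fragments at chr16:44557588-44557857 and fold 7.70 and 14 fragments at chr16:44508532-44508732, had a Cre peak 707 and 159 bp away. The strongest Cre peak of this stretch, at chr16:44513062-44513368, had 15 fragments and lay under 2 GFP peaks of 12 fragments each. Exons and introns are not in the gene table used, so positions are given only as inside or outside the gene.

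At the upper end GFP peaks also covered more. The last cluster, 70.7 to 72.8 kb from the lower end, held 1 Cre peak of 294 bp and 5 GFP peaks covering 1509 bp. The Cre peak had 11 fragments (5.49 to 19.7). The GFP peak over it had 21 fragments (13.0 to 32.1), the highest pileup of all 100 peaks of the 9 members, and a width of 614 bp at chr16:44556321-44556934. The intervals of the pileups overlapped. A GFP peak in the same cluster without Cre overlap, at chr16:44555744-44555957, had fold 7.22. The cluster lies near Mir3081, a microRNA gene at chr16:44558046-44558129 inside Boc. Between 53.5 and 55.4 kb the balance was turned, with 3 Cre peaks covering 766 bp (highest fold 7.97, 15 fragments, chr16:44539515-44539689, then 6.38 and 5.98) and 1 GFP peak covering 183 bp.

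**Figure D2:**
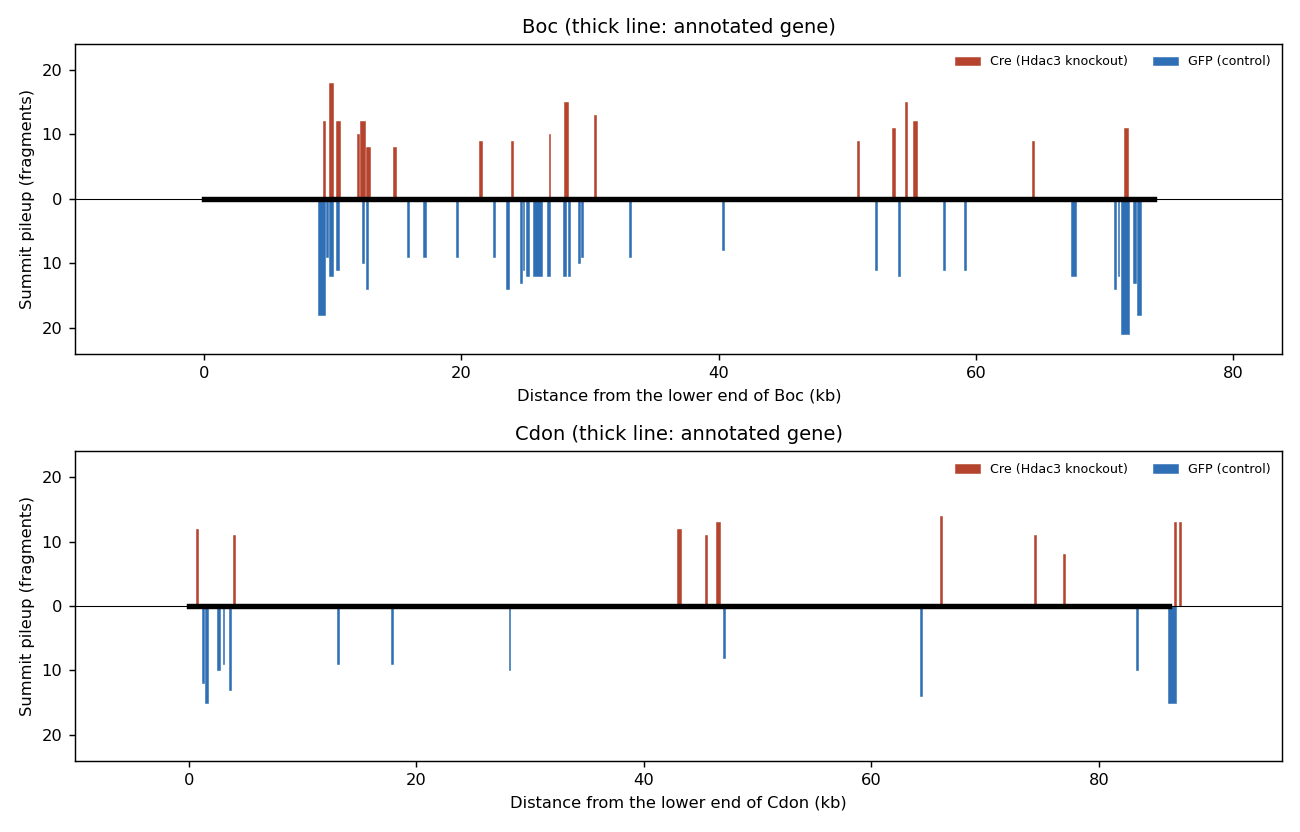
Peaks of Boc (top) and Cdon (bottom) against distance from the lower end of the gene in kb, with Cre peaks drawn upward in red and GFP peaks downward in blue; bar width is the peak's width and bar length its summit pileup in fragments. In Boc the GFP peaks are denser between 21.4 and 30.5 kb and at the upper end, while both libraries mark the cluster that starts at 8.88 kb.

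Cdon, a coreceptor related to Boc, had 10 Cre peaks covering 1923 bp and 12 GFP peaks covering 2876 bp (chr9:35421528-35507652). Both cultures had peaks at each end of the gene, but 1 Cre peak of 10 overlapped a GFP peak. In the first 0.637 to 4.07 kb there were 2 Cre peaks covering 326 bp and 5 GFP peaks covering 1203 bp, with no overlap between the lists. The Cre peaks there had 12 and 11 fragments, and the GFP peaks had from 9 to 15, with the highest fold, 7.01, at chr9:35425017-35425271 and the next, 6.51, at chr9:35422638-35422861.

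Across the far end of Cdon the GFP list had its widest peak of the members, 694 bp with 15 fragments (chr9:35507598-35508291). Its summit was 513 bp beyond the end, and 2 Cre peaks of 13 fragments each had summits 591 and 995 bp beyond it. These summits lie between Cdon and the neighbouring gene Gm1113. Inside the gene, peaks with no counterpart within 1 kb were found in both directions. A Cre peak of 14 fragments (chr9:35487557-35487747) lay 1612 bp from a GFP peak of 14 fragments (chr9:35485758-35485945). In the middle of the gene a Cre peak of 13 fragments (chr9:35467879-35468171) lay 300 bp from a GFP peak of 8 fragments.

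Gas1, a membrane-anchored coreceptor with a short gene of 3.13 kb (chr13:60174405-60177535), had 2 Cre peaks covering 354 bp and 1 GFP peak covering 165 bp. The shared site had its summits 973 bp (Cre) and 967 bp (GFP) upstream of the start, with 10 fragments (4.795 to 18.4) with Cre and 13 (6.92 to 22.2) with GFP. The other Cre peak, of 9 fragments, lay inside the gene 2233 bp past the start. The difference in peak number was that 1 peak of 9 fragments.

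Ptch1, the receptor and a hedgehog target gene (chr13:63508328-63573460), had called peaks in both cultures, but near its listed start they lay on different sides. It had 5 Cre peaks covering 946 bp and 4 GFP peaks covering 682 bp. The Cre list had 3 peaks downstream of the listed start, at 941, 1394 and 2208 bp, with 15, 8 and 9 fragments. The GFP list had none there and 2 peaks upstream, at −1347 and −1874 bp, with 15 and 11 fragments. The strongest peak on each side had 15 fragments (8.395 to 24.7) and was absent from the other list, and the 2 were 2057 bp apart. The annotated gene extends past this start to a further end, so the upstream GFP peaks lie inside the gene as annotated. One further site, at chr13:63535588-63536047 in the gene interior, had 9 fragments in both libraries, with peaks that overlapped by 3 bp.

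Smo, the transmembrane protein that passes the signal on (chr6:29735497-29761366), had 2 Cre peaks covering 490 bp and 3 GFP peaks covering 580 bp. The strongest site was shared. Its summits lay 1346 bp (Cre) and 1321 bp (GFP) past the start, with 13 fragments (6.92 to 22.2) with Cre and 15 (8.395 to 24.7) with GFP. The peak closest to the start, 370 bp past it, was in the GFP list alone with 9 fragments and fold 5.13. The peaks unique to a list were weak, with 7 fragments with Cre and 9 and 10 with GFP.

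**Figure D3:**
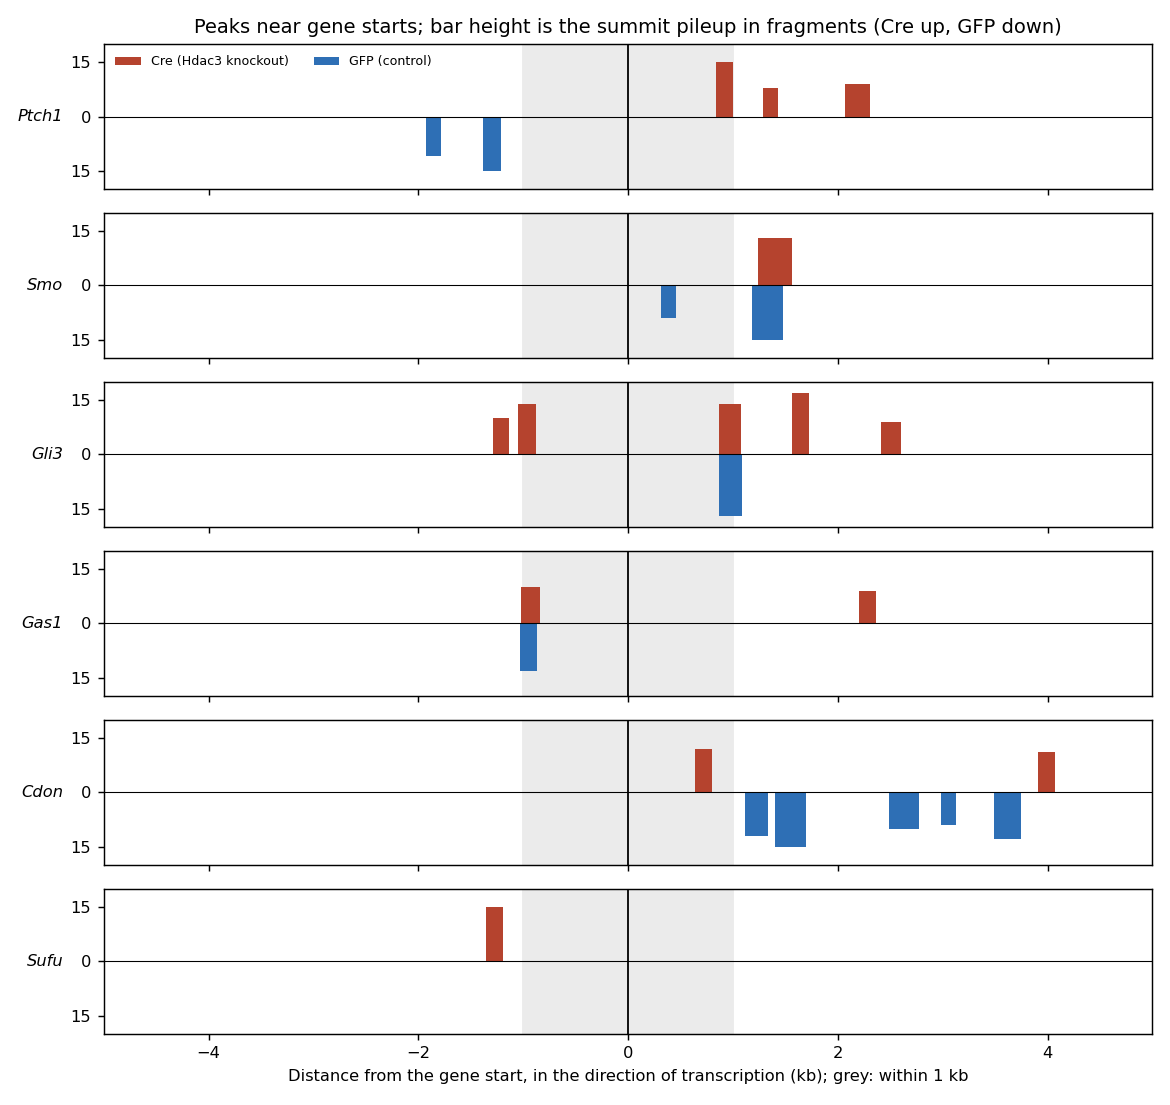
Peaks within 5 kb of the start of 6 genes, in kb along the direction of transcription, with Cre peaks upward in red and GFP peaks downward in blue; bar length is the summit pileup in fragments, and grey marks 1 kb on each side. For Ptch1 the listed start is used, and its Cre peaks lie to the right of it and its GFP peaks to the left; at Gli3, Smo and Gas1 overlapping peaks of both lists stand at the same place.

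Gli3, the main hedgehog repressor among the Gli factors (chr13:15463723-15730026), had more acetylated length in the Hdac3-deleted culture. It had 6 Cre peaks covering 1072 bp and 1 GFP peak covering 224 bp, a ratio of 4.79. At a −log10 q minimum of 10, with 1 peak of each list left, the direction turned (159 bp with Cre, 224 bp with GFP). The GFP peak overlapped a Cre peak just past the start, with summits at 984 bp (Cre) and 954 bp (GFP). There the pileup was 14 fragments (7.65 to 23.5) with Cre and 17 (9.90 to 27.2) with GFP, and the intervals overlapped.

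Further Cre peaks of Gli3 lay on both sides of that site. The strongest, at chr13:15465287-15465445, had its summit 1625 bp past the start, with 17 fragments (9.90 to 27.2) and fold 8.96, and the nearest GFP peak was 474 bp away. A peak at −979 bp had 14 fragments and fold 5.86, and lay like the one at −1222 bp (10 fragments) in Gm6556, a long non-coding RNA gene that overlaps the Gli3 start. The remaining Cre peaks, 2541 bp and 83576 bp past the start, had 9 and 10 fragments, with fold 4.65 and 5.48. Gli3 no longer passed the 2-fold threshold among the top 5000 peaks of each list (365 bp with Cre, 224 bp with GFP).

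Gli1, the pathway's amplifier and most used target gene (chr10:127329882-127341579), had no peak in either library. The nearest peaks were 18412 bp (Cre) and 17677 bp (GFP) from the gene, outside its neighbourhood. Gli2, the main activator (chr1:118834061-119054405), had no Cre peak and 1 GFP peak of 13 fragments (6.92 to 22.2) and fold 7.18 at chr1:118980765-118980914. That peak lay deep in the gene, 72783 bp past the listed start, and no peak of either list was near the start. A neighbourhood with GFP peaks alone was found at 6.38% of all protein-coding genes. A region under the caller's threshold is missing from a list, and member peaks had as few as 7 fragments, so absence from a list is not absence of the mark.

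Sufu, which holds Gli proteins in check (chr19:46396896-46488804), had 531 bp in 3 Cre peaks and nothing called with GFP. A Cre-only neighbourhood was found at 6.31% of all protein-coding genes. The strongest of the 3, with 15 fragments (8.395 to 24.7) and fold 6.25 at chr19:46395542-46395702, had its summit at −1277 bp from the Sufu start. That summit is also 122 bp inside Actr1a, a dynactin subunit gene that starts 1155 bp from Sufu on the opposite strand, so the peak lies at the start of Actr1a. The other Cre peaks had 9 fragments each and lay near the far end of Sufu, 86740 and 88466 bp past the start. The nearest GFP peak was 11675 bp beyond the gene. With 50 kb on each side, Sufu had 1034 bp with Cre and 704 bp with GFP and did not pass the threshold, nor did it at a −log10 q minimum of 5 or among the top 5000 peaks (161 bp with Cre, 0 bp with GFP in both).

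Promoter-near peaks, with a summit within 1 kb of an annotated gene start (of either gene end for Boc and Gli1), were found at 4 members with Cre (Cdon, Gas1, Ptch1 and Gli3) and at 3 with GFP (Gas1, Smo and Gli3). Of all protein-coding genes, 13.7% had one with Cre and 14.3% with GFP. Gas1 and Gli3 had one in both lists, as did 9.4% of all genes. The line at 1 kb fell among the members' own summits: those at 941 bp (Ptch1) and 984 bp (Gli3) were just inside and those at −1142 bp (Boc, GFP, from the upper end) and 1215 bp (Cdon, GFP) just outside.

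Within 2.5 kb of a start, 7 members had a Cre peak and 6 a GFP peak, against 16.5% and 17% of all genes. All 6 had both, as did 11.8% of all genes, Sufu had a Cre peak alone (4.75% of all genes) and no member had a GFP peak alone (5.25%). Within 500 bp, no member had a Cre peak and Smo alone had a GFP peak, against 9.17% and 9.57% of all genes. By summit, 37 of 46 Cre peaks and 50 of 54 GFP peaks lay in gene interiors more than 1 kb from a start. Within 1 kb of a start were 5 and 3, and in the flanks 4 and 1. Boc accounted for 18 of the members' interior Cre and 32 of their interior GFP peaks. Around all protein-coding genes, with a peak counted once per neighbourhood, 6766 Cre and 6659 GFP peaks were interior. Near a start were 4362 and 4529, and in the flanks 4614 and 4620, with no matching for gene length.

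Most peaks of each list overlapped no peak of the other, at the members and around all genes alike. Of the members' Cre peaks, 13 of 46 (28.3%, exact interval 15.99 to 43.5) overlapped a GFP peak, and of their GFP peaks 14 of 54 (25.9%, 14.96 to 39.7) overlapped a Cre peak. Around all protein-coding genes the shares were 41.5% and 41.3%. The members' intervals treat peaks as independent, while Boc holds 18 of the Cre and 32 of the GFP peaks, so they are no test against all genes. Within 1 kb of a peak of the other list were 54.3% of the members' Cre and 64.8% of their GFP peaks, against 65.8% and 67.2% around all genes. With peaks within 1 kb joined, 13 of the members' 44 clusters held peaks of both lists. Those clusters held 6306 of 9485 bp with Cre and 9218 of 12263 bp with GFP. Clusters were not counted around all genes. The 14 overlapping pairs had median pileups of 12 fragments with Cre and 12.5 with GFP. Pileup was higher in the Cre library in 5 pairs, in the GFP library in 8 and equal in 1, and the Poisson intervals overlapped in all 14.

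**Figure D4:**
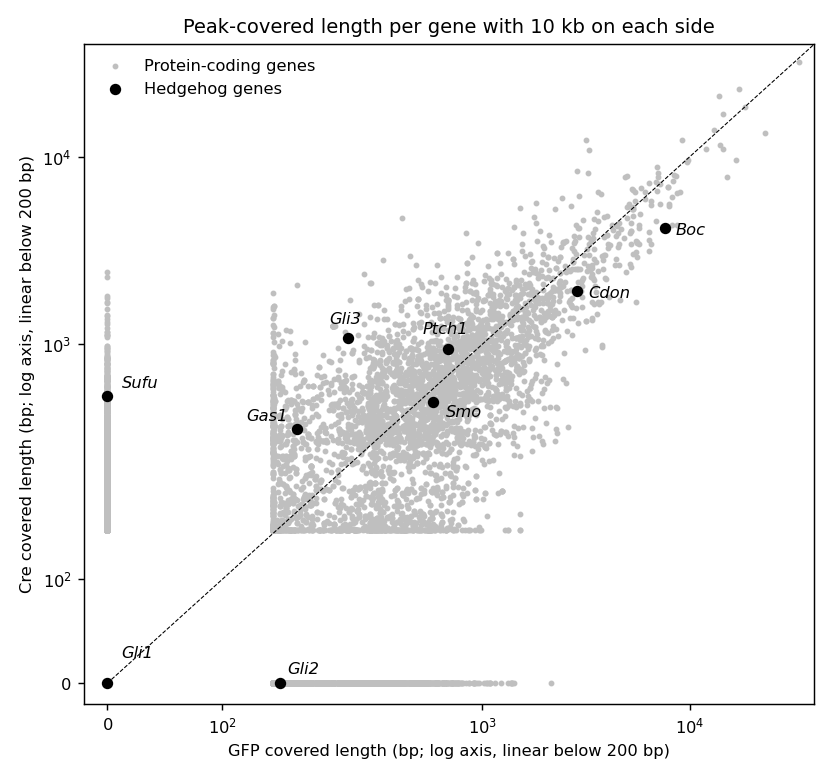
Peak-covered length in bp of each protein-coding gene with 10 kb on each side (grey) and of the 9 hedgehog genes (black), Cre library on the vertical and GFP library on the horizontal axis, both logarithmic above 200 bp and linear below; the dashed line marks equal length. Boc and Cdon lie below the line among genes of long cover, Gli3 lies above it, and Sufu stands at 0 in the GFP library with 531 bp in the Cre library.

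Further genes of the pathway were taken from lists of ligand, regulator and response genes, with Hhip beside them. Of 8 genes for ligands and their release, 2 had a peak, against 32.3% of all protein-coding genes, and Ihh and Shh had none in either list. Hhat, the acyltransferase that adds palmitate to hedgehog ligands, had 3 Cre peaks covering 696 bp and 2 GFP peaks covering 422 bp, and was marked near its start in the GFP list alone. Dhh, a ligand gene, had 155 bp with Cre alone. Of the 4 Cre peaks at these 8 genes, 3 had their summit in the 10 kb flanks, and no GFP peak did. Hhip, a decoy receptor and pathway target, had no peak in either list.

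Of 24 ciliary and Gli-processing regulators, 14 had peaks, against 32.3% of all protein-coding genes: 33 Cre peaks covering 6935 bp and 38 GFP peaks covering 9437 bp. By summit, 9 of the 33 Cre and 9 of the 38 GFP peaks lay in the 10 kb flanks. Covered length was greater with Cre for 7 and with GFP for 7. Past the 2-fold and 300 bp thresholds, Ulk3, a kinase of the pathway, was greater in the Cre list (2 peaks, 356 bp, none in the GFP list). Fbxw11, a ubiquitin ligase subunit that acts on Gli3, Ift88, a ciliary transport gene, and Tulp3, a ciliary trafficking gene, were greater in the GFP list. Of the genes with any peak, 12.4% passed in the Cre and 12.7% in the GFP direction, and of all genes 4% and 4.12%. Fbxw11 had 6 Cre peaks and 9 GFP peaks covering 1079 and 2184 bp. Ift88 covered 320 bp with Cre and 1746 bp with GFP, and Tulp3 covered 496 and 1642 bp.

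Within 1 kb of a start, Csnk1a1, Btrc, Spop and Ulk3 were marked in the Cre list alone, and Iqce, Prkacb, Prkar1a, Cul3 and Tulp3 in the GFP list alone, or 4 and 5 of 24 genes. Those calls were found at 4.33% and 4.91% of all genes, or at 948 and 1075 of the 7079 genes with a peak. Of the 24 genes, 14 had a peak. Csnk1a1, Btrc and Iqce have no strand given, so either gene end counted as a start for them. Within 2.5 kb, Csnk1a1 (2 Cre peaks, 3 GFP peaks) and Iqce (1 and 2) were marked in both lists. In that window 3 and 4 of the 24 genes were marked in 1 list alone, against 4.75% and 5.25% of all genes. The latter were 1039 and 1149 of the 7079 genes with a peak. Gsk3b, a kinase that phosphorylates Gli proteins, covered 662 bp with Cre and 901 bp with GFP, and Fkbp8, a pathway antagonist in the neural tube of the mouse, covered 1863 and 1121 bp. Csnk1a1 covered 1221 and 920 bp.

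Of 14 hedgehog response and growth plate genes, 6 had peaks (32.3% of all protein-coding genes did), covering 6196 bp with Cre and 5965 bp with GFP, a Cre share of 50.9%. Foxc1, a forkhead factor of the skeleton, accounted for most of it with 14 Cre peaks covering 4444 bp and 12 GFP peaks covering 4539 bp, and was marked near its start in both lists. Of these Foxc1 peaks, 3 of each list had summits within 2.5 kb of its start. Over the 14 genes, 13 of 23 Cre peaks and 10 of 19 GFP peaks lay in the 10 kb flanks. Bcl2, a survival gene, covered 725 and 699 bp, and Pth1r, the PTHrP receptor gene, covered 408 and 415 bp. Nkx3-2, a repressor of chondrocyte maturation, had 325 bp in 2 Cre peaks and none with GFP, the one pass of the thresholds in this list, which 4% of all genes made in the Cre direction. Neither Nkx3-2 peak had its summit within 2.5 kb of the start. Ccnd2 covered 147 and 312 bp, and Foxc2 had 147 bp with Cre alone.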

How the data were processed

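H3K27ac ChIP-seq peak lists of 1 Cre and 1 GFP culture were analysed, and the 2 input libraries were not used here. Build mm10 and the tools SICER, BWA, Picard and bcl2fastq (1.8.4) are named, per the submitters' processing notes. The lists have the column order of MACS2 output; version, settings and control: not given in the sources used here. The deposited score equalled the deposited −log10 q-value times 10, cut to a whole number. The deposited fold is the ratio of observed to expected pileup, and the deposited −log10 p-value refers to the same summit. With 1 added to both pileups and a Poisson upper tail, 100% of peaks gave a whole pileup within 0.001.

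Positions are 1-based. RefSeq gene and promoter tables gave strand and starts for 17491 of 21883 genes; for the others both gene ends were used. An overlap was any shared base (1 bp), and a covered base was counted once. The Python interval and pileup code (version 3.11.15, SciPy 1.17.1) was tested on simulated data. Intervals are exact Clopper-Pearson or Poisson 95% intervals. The members and lists were chosen with earlier results of these data known. All members are named; of genes with over 5 peaks, those of highest fold, greatest width or highest fold in 1 list, and of each further list up to 6 genes of greatest covered length and any marked near its start in 1 list. Joining peaks of both lists into clusters was added after seeing the data. Alternatives changed the flank, peak threshold, merging, overlap, start window and members. The list of further receptors and decoys is, apart from Hhip, not reported here.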

Additional observations from a re-analysis of the deposited data

How the results depend on the processing

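The Cre share of peak number (46%) and of covered length (43.6%) stayed within the exact interval of the peak-number share with the gene body alone, with 50 kb on each side, with a −log10 q minimum of 5, with peaks within 500 bp merged, and, for length, without each member in turn (41.1 to 53.2%). That interval, 35.98 to 56.3%, spans an even split and is not one of covered length. A share can thus stay within it and change direction, as the length share did without Boc (53.2%). At a −log10 q minimum of 10, 2 Cre and 4 GFP peaks were left, and the shares were 33.3% and 21.9%, with 0% of Cre peaks overlapping a GFP peak. Among the top 5000 peaks of each list the share of length was 31.2%. Of Cre peaks, 54.3% had a GFP peak within 1 kb. Members with a promoter-near peak numbered 7 (Cre) and 6 (GFP) within 2.5 kb, 0 and 1 within 500 bp, and 0 and 1 at the minimum of 10. The Gli3 difference turned to −65 bp at that minimum, on 1 peak of each list, and the Sufu difference was no longer 2-fold with 50 kb on each side, where 6 Cre and 4 GFP peaks lay. Boc passed the 2-fold threshold in the GFP direction at the minimum of 5 (1725 and 5404 bp), at that of 10 (305 and 1426 bp) and among the top 5000 peaks (1134 and 4343 bp). The cause of these changes was not tested. Sufu also missed the 2-fold and 300 bp thresholds at the minimum of 5 and among the top 5000 peaks (161 and 0 bp in both). Among the top 5000 peaks, the differences of Gas1, Ptch1 and Smo turned to −165, −12 and 28 bp, and at the minimum of 5 those of Cdon, Gas1, Ptch1 and Smo turned to 252, −165, −160 and 28 bp. Pileups of 7 to 21 fragments limit every single-peak comparison. No paired analysis was possible because each group has 1 library.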
